A study of Mus musculus with 6 samples.

Results

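The respiratory chain of the inner mitochondrial membrane was followed here through the transcripts of its subunits, from both genomes. Members were taken by gene symbol: the Nduf, Sdh, Uqcr, Cyc1, Cox4 to Cox8 and Atp5 names of the nuclear genome, without Ndufa4l2, and the symbols of the 13 protein-coding genes of mitochondrial DNA. This gave 109 of the 13384 genes in the count table, 96 of them nuclear and 13 mitochondrially encoded. The rule reads symbols and no level. Complex I, the NADH dehydrogenase, had 36 nuclear and 7 mitochondrial members. Complex II, the succinate dehydrogenase, had 4, all nuclear. Complex III, the cytochrome bc1 complex, had 8 nuclear members and 1 mitochondrial member. Complex IV, the cytochrome c oxidase, had 16 and 3, with Ndufa4 counted there, and complex V, the ATP synthase, had 17 and 2. The other 15 nuclear symbols were 8 assembly factors of complex I, 5 copy or pseudogene symbols, the supercomplex factor Cox7a2l and the ATP synthase inhibitor Atp5if1.

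Complexes I to IV pass electrons from NADH and succinate to oxygen and pump protons, except for complex II, and complex V uses the proton gradient to make ATP. The heart draws most of its ATP from this chain and is among the tissues richest in mitochondria. Mitochondrial DNA encodes a few mostly hydrophobic membrane subunits, which are transcribed as long polycistronic RNAs and cut into messengers, while the nuclear genes are transcribed one by one and include subunits with separate forms for heart and skeletal muscle and for other tissues.

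Polyadenylated RNA was sequenced in bulk from left ventricles of 3 mice lacking cytoglobin (Cygb, a globin of fibroblasts and vascular cells) in all tissues, genotype Cygb(-/-), here Cygb KO, and of 3 wild-type littermates, here WT. All 6 mice carried an osmotic pump under the skin that delivered angiotensin II, which raises blood pressure, for 2 weeks at 1.5 mg/kg/day, so no untreated heart stands in the comparison. Each library came from 1 mouse. The comparison asks which transcripts of the stressed ventricle differ between the genotypes. The age of the mice was not given in the sources used here.

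Library totals ran from 23190864 to 30354857 counts, and every member had at least 14 counts in every library, so 0 members were removed by the filter on low counts. Cygb was not analysed here, and the genotypes were taken from the labels. Levels are CPM, counts scaled to library size with TMM factors. The summed level of 10 cardiomyocyte markers ran from 70685 to 81158 CPM in Cygb KO and from 69886 to 87186 CPM in WT. Groups of other markers did not overlap: 8 fibroblast markers summed to 2424 to 2729 CPM in Cygb KO and 2788 to 4328 CPM in WT, with 0 of 8 above a log2 fold change of 0, and 4 smooth muscle markers to 121 to 167 CPM in Cygb KO and 170 to 257 CPM in WT, with 0 of 4 above 0. The 5 atrial markers summed to 519 to 590 CPM in Cygb KO and 718 to 3066 CPM in WT, with 1 of 5 above 0. Most of this sum was Nppa, with 507, 533 and 449 CPM in Cygb KO and 2282, 2058 and 623 CPM in WT. Myl7 and Myl4 were high in WT 1 alone, at 250 and 392 CPM. They had 19.2 and 22.7 CPM in WT 2, 27.6 and 36.2 CPM in WT 3, and at most 13.4 and 21.7 CPM in Cygb KO. No marker was at 0 counts. In bulk RNA, fewer cells of a type and less RNA per cell cannot be told apart, and the part these markers have in the results below was not tested. Over all genes, the level relative to the mean of the 6 libraries correlated with the GC content of the transcript at r = -0.42, -0.18 and -0.35 in Cygb KO 1, 2 and 3, and at 0.50, -0.20 and 0.45 in WT 1, 2 and 3, so that WT 2 had the sign of the Cygb KO libraries.

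No respiratory chain member passed the test. With edgeR's quasi-likelihood test and an adjusted p under 0.05, 0 of 109 members were called higher and 0 lower in Cygb KO, against 0.0897% of all genes called higher and 0.0224% called lower (12 and 3 of 13384). At an unadjusted p under 0.05, 11 members lay higher in Cygb KO and 7 lower, which is 10.1% and 6.42% of them, against a background of 10.2% and 8.94% of all genes. The groups did not overlap for 9 members higher and 7 lower in Cygb KO, which is 8.26% and 6.42%, against 11.8% and 10.5% of all genes. These shares are near the background or below it. DESeq2 called 4 members higher (ATP8, ND4L, ND5 and Ndufa12) and 1 lower (Cox6a1), or 3.67% and 0.917% of the members, against 2.63% and 1.99% of all genes.

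The genomes differed in the sign of their fold changes. All 13 mitochondrially encoded members had a positive log2 fold change, with a median of 0.25 and a range from 0.11 for COX2 to 0.75 for ND4L. Of the 96 nuclear members, 30 lay above 0 and 66 below, with a median of -0.087 and a range from -0.70 for Cox6a1 to 0.86 for Ndufa12. The median over all genes was -0.0045. With the dependence of each library on GC content and length removed, the mitochondrial median was 0.031 with 9 of 13 above 0, and the nuclear median was 0.0073 with 50 above 0. Without WT 3 the nuclear median was 0.0065.

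**Figure D1:**
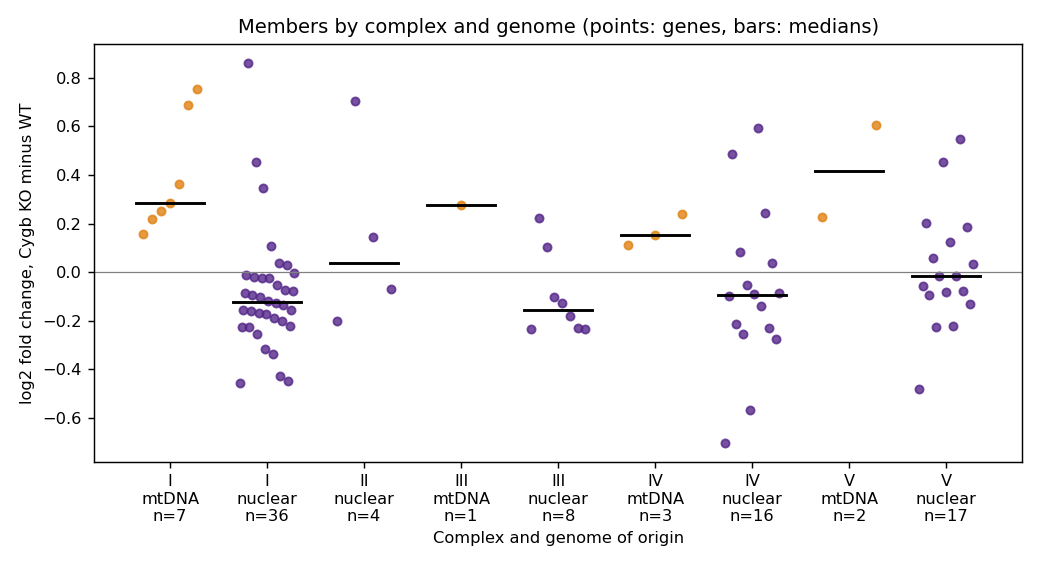
Log2 fold change (Cygb KO minus WT, edgeR with TMM scaling) of each member in complexes I to V, split by genome of origin, with 1 point per gene and a bar at the median. All mitochondrially encoded points lie above 0, while the nuclear medians of complexes I, III and IV lie at -0.12, -0.16 and -0.094.

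Mitochondrially encoded transcripts made up 23.0%, 19.6% and 22.4% of all counts in the Cygb KO libraries, against 17.3%, 18.7% and 19.1% in the WT libraries. The lowest Cygb KO library, replicate 2, stood just above the highest WT library, so the shares did not overlap, with means of 21.7% ± 1.80 in Cygb KO and 18.4% ± 0.972 in WT (SD, n = 3 each). On the TMM scale the groups did overlap, since Cygb KO 2 had a summed level of 189318 CPM and WT 3 one of 190026 CPM. The nuclear members together held 3.64%, 3.51% and 3.37% of counts in Cygb KO and 3.63%, 3.44% and 4.11% in WT, with WT 3 highest and the other 5 libraries close together. Mitochondrial counts per nuclear member count were 6.32, 5.59 and 6.65 in Cygb KO, against 4.76, 5.45 and 4.64 in WT. Every Cygb KO library was higher than every WT library, though Cygb KO 2 and WT 2 were near each other. After the GC content and length correction the ratio was 5.30, 5.42 and 6.13 in Cygb KO and 6.34, 4.92 and 5.20 in WT, and the groups overlapped. These sums run over all members of a genome and carry no test.

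**Figure D2:**
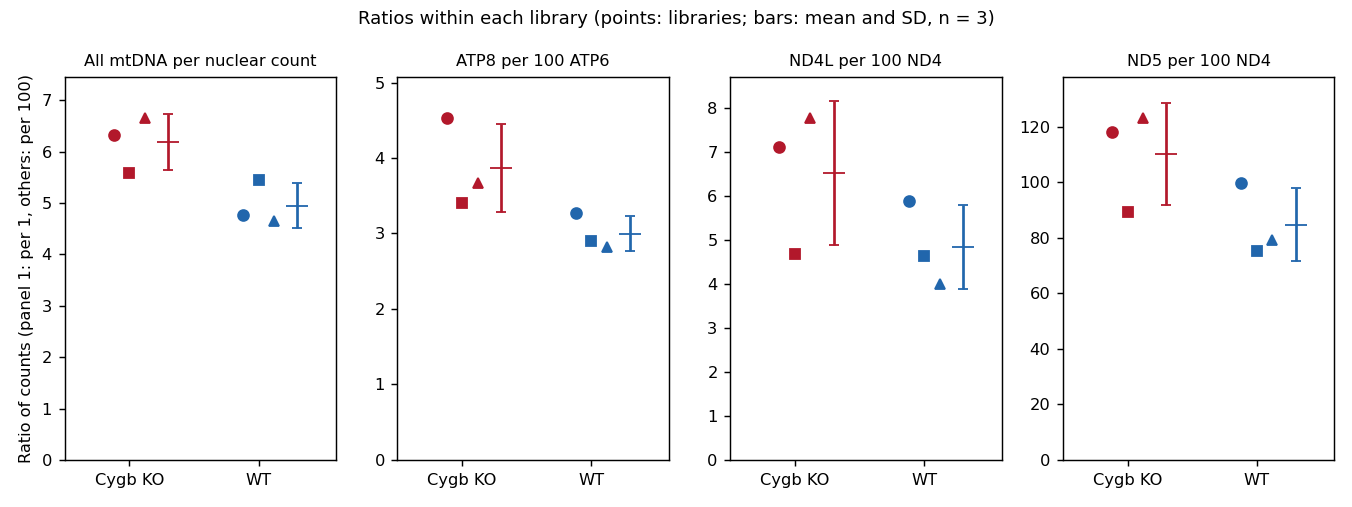
Ratios of counts within each library, with Cygb KO left of WT in each panel, points for libraries (circle, square and triangle for replicates 1, 2 and 3) and bars for the mean and SD of 3 libraries. The ratio of all mitochondrial to all nuclear member counts and that of ATP8 to ATP6 do not overlap between the groups, while Cygb KO 2 falls among the WT libraries for ND4L and ND5 relative to ND4.

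The mitochondrial members varied widely in level. Per kilobase of transcript, the mean level over the 6 libraries was 49160.1 CPM for COX1, 23456 CPM for CYTB, 19334 CPM for COX2 and 17869 CPM for ND1, against 1536 CPM for ATP8, the lowest of the 13. The nuclear member with the highest level per kilobase, Atp5f1b, the catalytic beta subunit of ATP synthase, reached 2416 CPM, and Cox4i1 reached 2233 CPM. COX1, the catalytic subunit of cytochrome c oxidase, had 87672, 71222 and 87944 CPM in Cygb KO, against 69378, 70006 and 69492 CPM in WT. Its groups did not overlap, with Cygb KO 1 and 3 well above and Cygb KO 2 just above the tightly grouped WT libraries (log2 fold change 0.24, SE 0.13, edgeR adjusted p = 0.33). The other oxidase subunits differed less, with log2 fold changes of 0.15 for COX3 and 0.11 for COX2, both with overlapping groups.

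The 3 largest mitochondrial fold changes belonged to ND4L, ND5 and ATP8. ND5 (GRCm38 chrM:11742-13565), a proton-pumping subunit of complex I, had 19408, 12326 and 20840.5 CPM in Cygb KO, against 11945, 9665 and 11003 CPM in WT. Cygb KO 1 and 3 stood apart from the rest, and Cygb KO 2 was only slightly above WT 1. The log2 fold change was 0.69 (SE 0.18, edgeR adjusted p = 0.101). It was 0.42 after the GC content and length correction. ND4L, another membrane subunit of complex I, had 1169, 647 and 1318 CPM in Cygb KO, against 706, 596 and 557 CPM in WT. Here Cygb KO 2 was below WT 1, so the groups overlapped, and the log2 fold change was 0.75 (SE 0.23, edgeR adjusted p = 0.133), or 0.60 after the correction. With Cygb KO 2 left out, edgeR called ND4L and ND5 higher (log2 fold changes 1.00 and 0.89, adjusted p = 0.0443 and 0.0488) and no other member in either direction, against 0.0822% of all genes called higher and 0.0299% called lower. DESeq2 called both with all libraries kept.

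ATP8, a small membrane subunit of ATP synthase, had 449, 307 and 379 CPM in Cygb KO, against 239, 267 and 241 CPM in WT. All 3 Cygb KO libraries were above all 3 WT libraries. The log2 fold change was 0.60 (SE 0.15, edgeR adjusted p = 0.0795), the smallest p of any member, and 0.29 after the GC content and length correction. Without WT 2, edgeR called it higher (0.66, adjusted p = 0.0163). ATP6, the membrane subunit encoded next to it, had 9907, 9009 and 10326 CPM in Cygb KO, against 7302, 9185 and 8529 CPM in WT. Its groups overlapped through Cygb KO 2 and WT 2, at a difference of 0.23 on the log2 scale (SE 0.13, edgeR adjusted p = 0.37).

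ATP8 and ATP6 overlap by 43 bases, and ND4L and ND4 by 7, as the mitochondrial genome packs these pairs into shared messengers. The ATP8 gene is shown whole and ND4L by its last 60 bases, since the way reads over such an overlap were assigned was not given in the sources used here and bears on both low-level members. Capitals mark the bases shared with ATP6 and with ND4 (reference sequence, GRCm38, plus strand, chrM:7766-7969 and chrM:10114-10173).
ATP8: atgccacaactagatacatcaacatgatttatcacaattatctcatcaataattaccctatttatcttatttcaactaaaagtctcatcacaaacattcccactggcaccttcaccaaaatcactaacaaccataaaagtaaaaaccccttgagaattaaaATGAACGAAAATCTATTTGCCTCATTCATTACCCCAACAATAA
ND4L, last 60 bases: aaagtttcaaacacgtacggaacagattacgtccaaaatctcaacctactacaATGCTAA
In both, the capitals open with the ATG of the downstream gene. The overlap takes 43 of the 204 bases of ATP8 but 7 of the 297 bases of ND4L.

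Ratios within a library here compare mitochondrial genes with each other. ATP8 with ATP6 and ND4L with ND4 are overlapping pairs in shared messengers. The genes of the other pairs given here do not overlap. ATP8 stood at 4.53, 3.41 and 3.67 counts per 100 of ATP6 in Cygb KO, against 3.27, 2.90 and 2.82 in WT, with no overlap. After the GC content and length correction WT 1 stood at 3.65, within the Cygb KO range of 3.37 to 4.32. ND2 stood at 77.8, 71.2 and 78.5 counts per 100 of ND1 in Cygb KO, against 67.6, 62.6 and 67.2 in WT. These groups did not overlap, nor did they after the correction (71.2 to 78.0 in Cygb KO and 61.9 to 69.9 in WT). COX2 per 100 counts of COX1 overlapped before the correction. After it the ratio was lower in Cygb KO without overlap (16.3 to 17.3 in Cygb KO and 17.5 to 19.2 in WT). For ND4L and for ND5, both per 100 counts of ND4, Cygb KO 2 lay inside the WT range. Of 16 ratios computed here, 15 compared single genes or a gene with its copies. Their exact permutation p was at least 0.1, two-sided, which is the smallest value that 3 against 3 libraries allow. After Benjamini-Hochberg adjustment over the 15 it was at least 0.333 for the uncorrected ratios and at least 0.3 for the corrected ones.

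**Figure D3:**
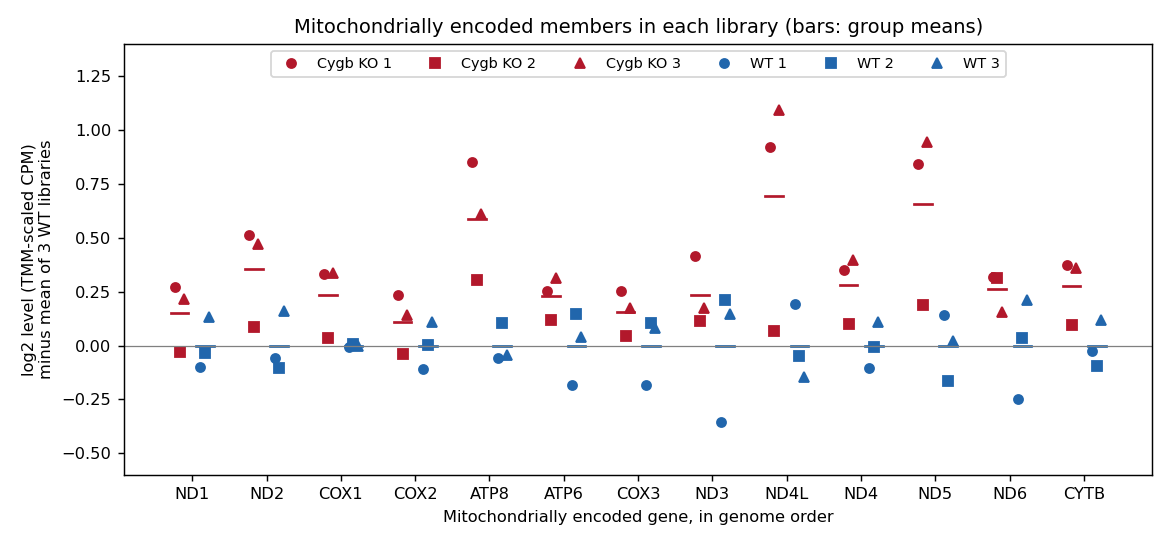
Level of the 13 mitochondrially encoded members in each library, as log2 TMM-scaled CPM minus the mean of the 3 WT libraries, in genome order, with Cygb KO left of WT for each gene and bars at group means. Cygb KO 1 and 3 lie above 0 for all 13 genes and Cygb KO 2 for 11.

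Relative to the WT mean, the median over the 13 mitochondrial genes was 0.35, 0.093 and 0.34 log2 units in Cygb KO 1, 2 and 3, and -0.098, 0.0011 and 0.11 in WT 1, 2 and 3. CYTB, the cytochrome b of complex III, had a log2 fold change of 0.28 (edgeR adjusted p = 0.273), and ND4 and ND2 had 0.29 and 0.36 (adjusted p = 0.263 and 0.208). ND6, the only one of the 13 encoded on the other strand, had 4216, 4203 and 3775 CPM in Cygb KO, against 2853, 3474 and 3918 CPM in WT. Its groups overlapped through WT 3, and its log2 fold change of 0.25 equalled the median of the 13. ND3 and ND1 had 0.22 and 0.16, both with overlapping groups. Near-identical copies of 7 of these genes (COX1, COX2, ATP6, COX3, ND3, ND4L and ND4) lie in nuclear pseudogenes of the annotation, so reads of those may be split. For ND1, ND2, ND5, ND6, CYTB and ATP8 no such copy was found among the annotated transcripts. Nuclear sequence outside annotated transcripts was not searched.

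In complex I, 6 of the 36 nuclear members lay above 0 and the median was -0.12, which became 0.0096 with 19 above 0 after the GC content and length correction. The library medians relative to WT were -0.02, -0.14 and -0.17 in Cygb KO and -0.06, -0.15 and 0.20 in WT: 34 of the 36 genes in WT 3 were above their WT mean, against 5 in WT 2 and 14 in WT 1. Among the 7 core nuclear subunits, which carry the flavin and iron-sulphur clusters, Ndufs1 was the only one above 0, with 718, 545 and 736 CPM in Cygb KO and 526, 534 and 513 CPM in WT. Its groups did not overlap, although Cygb KO 2 was close to WT (log2 fold change 0.35, SE 0.14, edgeR adjusted p = 0.202). Ndufs7, which holds the last iron-sulphur cluster before ubiquinone, had 361, 337 and 327 CPM in Cygb KO, against 506, 312 and 586 CPM in WT. WT 2 lay below all Cygb KO libraries while WT 1 and WT 3 lay far above them (log2 fold change -0.46, SE 0.19, edgeR adjusted p = 0.228). Without WT 2, edgeR called Ndufs7 lower (-0.67, adjusted p = 0.00629). After the GC content and length correction, with all libraries kept, its log2 fold change was -0.10.

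The 4 nuclear complex I members with the smallest p were accessory subunits. Ndufa11, an accessory subunit at the membrane arm, had 159, 152 and 138 CPM in Cygb KO, against 206, 164 and 235 CPM in WT. All Cygb KO libraries were below all WT libraries (log2 fold change -0.43, SE 0.14, edgeR adjusted p = 0.148, and -0.12 after the correction). Ndufa2, an accessory subunit of the peripheral arm, also separated the groups, with 113, 122 and 104 CPM in Cygb KO and 129, 137 and 162 CPM in WT (-0.34, SE 0.13, edgeR adjusted p = 0.189, and -0.22 after the correction). Ndufa6, an accessory subunit at the matrix side, had 74.8, 64.6 and 74.0 CPM in Cygb KO and 102, 72.8 and 116 CPM in WT, where WT 2 again sat among the Cygb KO libraries (-0.45, SE 0.16, edgeR adjusted p = 0.171, and -0.27 after the correction). Ndufa12 (GRCm38 chr10:94198720-94221443, plus strand), an accessory subunit of the peripheral arm, ran the other way, with 41.7, 37.1 and 37.8 CPM in Cygb KO and 16.6, 34.1 and 13.6 CPM in WT. WT 2 was close to Cygb KO and the other WT libraries far below, and the SE was large (log2 fold change 0.86, SE 0.31, edgeR adjusted p = 0.202). The log2 fold change was 1.37 without WT 2 (edgeR adjusted p = 0.000585) and 0.94 after the GC content and length correction. A near-identical copy of 36.2% of the Ndufa12 transcript lies elsewhere in the genome.

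Complex II, which also serves the citric acid cycle, had a nuclear median of 0.038 (-0.034 without WT 2) and no member with an unadjusted p under 0.05. Sdha, its flavoprotein, had 1504, 1313 and 1609 CPM in Cygb KO and 1444, 1218 and 1342 CPM in WT (log2 fold change 0.14, edgeR adjusted p = 0.563), and Sdhb, its iron-sulphur protein, 704, 576 and 621 CPM in Cygb KO and 756, 594 and 836 CPM in WT (-0.20, adjusted p = 0.47). The membrane anchor Sdhc stood at -0.069. Sdhd, the other membrane anchor, was counted at only 3.55, 2.79 and 4.06 CPM in Cygb KO and 1.65, 3.37 and 1.38 CPM in WT. WT 2 lay with Cygb KO once more, and the log2 fold change was 0.70 (SE 0.34, edgeR adjusted p = 0.276), or 1.21 without WT 2 (adjusted p = 0.023). Per kilobase, Sdhd had 2.27 CPM, against 107 CPM for Sdhc, its partner in the same anchor.

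Complex III had the lowest nuclear median, -0.16 with 2 of 8 above 0, and no member with an unadjusted p under 0.05. After the GC content and length correction the median was -0.017. Uqcrc2, a core protein of the matrix side, had 1022, 788 and 970.3 CPM in Cygb KO and 795, 816 and 773 CPM in WT. Cygb KO 2 lay within the WT range (log2 fold change 0.22, edgeR adjusted p = 0.37). Its partner Uqcrc1 had 849, 798 and 852 CPM in Cygb KO and 1086, 754 and 1099.8 CPM in WT, with WT 2 lowest of all 6 libraries (-0.23, adjusted p = 0.413, and 0.029 after the correction). Cyc1, the cytochrome c1, had a log2 fold change of -0.23 (adjusted p = 0.388) and the small subunit Uqcr10 one of -0.23 (adjusted p = 0.359), which were -0.024 and -0.010 after the correction.

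Complex IV held the nuclear member with the smallest p. Cox6a1 (GRCm38 chr5:115345642-115348981, minus strand), the form of subunit VIa outside heart and skeletal muscle, had 80.6, 78.7 and 68.3 CPM in Cygb KO, against 126, 88.6 and 156 CPM in WT. All Cygb KO libraries were below all WT libraries, and WT 2 was the nearest to them. The log2 fold change was -0.70 (SE 0.18, edgeR adjusted p = 0.091), -0.36 after the GC content and length correction (edgeR adjusted p = 0.218) and -0.88 without WT 2 (edgeR adjusted p = 0.00384). Cox7c, a small accessory subunit, ran the other way with 36.8, 32.0 and 31.2 CPM in Cygb KO, against 17, 28.9 and 20.3 CPM in WT. Its groups did not overlap, with WT 2 again nearest, and the log2 fold change was 0.59 (SE 0.18, edgeR adjusted p = 0.126) and 0.60 after the correction. Cox5b, an accessory subunit of the matrix side, had 119, 114 and 94.7 CPM in Cygb KO and 65.6, 93.4 and 74.5 CPM in WT. The groups were separated by a narrow gap between Cygb KO 3 and WT 2 (0.49, SE 0.15, edgeR adjusted p = 0.127, and 0.52 after the correction). Without WT 2 edgeR called both higher, Cox7c at 0.84 and Cox5b at 0.65 (adjusted p = 0.00604 and 0.0113).

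Cox6a1 and Cox7c had fold changes of opposite sign and differ in base composition, which is why the first 189 bases of their coding sequences, the whole of it for Cox7c, are shown (reference sequence, GRCm38, minus strand of chr5:115348631-115348950 and chr13:86045756-86046675, introns and the stop codon left out). Capitals mark G and C.
Cox6a1: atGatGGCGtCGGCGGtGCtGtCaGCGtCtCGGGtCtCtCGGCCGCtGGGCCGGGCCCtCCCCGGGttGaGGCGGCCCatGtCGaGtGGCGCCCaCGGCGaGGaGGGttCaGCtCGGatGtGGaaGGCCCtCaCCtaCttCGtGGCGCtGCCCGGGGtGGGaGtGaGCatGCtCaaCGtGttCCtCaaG
Cox7c: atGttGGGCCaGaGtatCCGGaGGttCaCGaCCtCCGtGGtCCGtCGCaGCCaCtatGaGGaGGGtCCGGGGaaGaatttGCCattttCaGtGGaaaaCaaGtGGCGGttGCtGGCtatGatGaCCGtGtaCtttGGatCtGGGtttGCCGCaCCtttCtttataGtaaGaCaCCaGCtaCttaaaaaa
The coding sequence is 336 bases long with 64.9% G and C in Cox6a1, and 189 bases long with 50.3% in Cox7c. Over the whole transcript the GC content was 58.8% for Cox6a1 and 46.7% for Cox7c.

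Several oxidase subunits exist in a heart and skeletal muscle form (Cox6a2, Cox7a1, Cox8b) and a form found in most other tissues (Cox6a1, Cox7a2, Cox8a), and the muscle form was the more abundant: per kilobase, the mean level over the 6 libraries was 1071 CPM for Cox6a2 and 175 CPM for Cox6a1, 1196 CPM for Cox7a1 and 95.9 CPM for Cox7a2, and 922 CPM for Cox8b and 146 CPM for Cox8a. Cox6a1 stood at 11.9, 11.3 and 11.0 counts per 100 of Cox6a2 in Cygb KO, against 15.1, 14.4 and 16.7 in WT. Cox7a2 stood at 11.8, 12.03 and 11.5 counts per 100 of Cox7a1 in Cygb KO, against 15.9, 15.9 and 14.5 in WT. In both pairs the 3 Cygb KO libraries lay close together and below all WT libraries, WT 2 included. The means were 11.4 ± 0.422 in Cygb KO and 15.4 ± 1.21 in WT for Cox6a1 per 100 Cox6a2, and 11.8 ± 0.264 in Cygb KO and 15.5 ± 0.795 in WT for Cox7a2 per 100 Cox7a1 (SD, n = 3 each; exact two-sided permutation p = 0.1 for each, 0.333 adjusted over 15 ratios). After the GC content and length correction neither pair overlapped, with 11.7 to 12.8 in Cygb KO and 13.7 to 14.9 in WT for the Cox6a pair, and 11.04 to 11.98 in Cygb KO and 15.4 to 16.4 in WT for the Cox7a pair.

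The pairs reached these ratios through different members. Cox6a2 had a log2 fold change of -0.26 (edgeR adjusted p = 0.374), less negative than that of Cox6a1. Cox7a1 had 538, 505 and 486 CPM in Cygb KO and 402, 403 and 486 CPM in WT, barely without overlap (0.24, SE 0.13, edgeR adjusted p = 0.305, and 0.45 after the correction), and Cox7a2 had 63.7, 60.8 and 56.0 CPM in Cygb KO and 63.9, 64.3 and 70.6 CPM in WT (-0.14, SE 0.12, adjusted p = 0.543, and -0.025 after the correction). For Cox8a per 100 Cox8b the libraries overlapped, at 22.9, 22.5 and 20.8 in Cygb KO and 22.7, 27.1 and 29.1 in WT. Cox4i2, a form of subunit IV known from lung, was low, with 6.0, 6.41 and 5.20 CPM in Cygb KO and 7.74, 6.51 and 11.8 CPM in WT (-0.56, SE 0.23, edgeR adjusted p = 0.214). Per 100 counts of Cox4i1 it stood at 0.354 to 0.420 in Cygb KO and 0.416 to 0.519 in WT, which overlap, and after the GC content and length correction at 0.349 to 0.416 in Cygb KO and 0.426 to 0.532 in WT, which do not. Cox6b2, known from testis, had 0.694, 0.874 and 0.750 CPM in Cygb KO and 1.11, 0.543 and 0.819 CPM in WT, and its ratio to Cox6b1 overlapped. The fibroblast and smooth muscle marker sums given above were lower in Cygb KO, while pericyte and endothelial marker sums overlapped. The pericyte markers split, with 2 of 4 above 0. Rgs5 had a log2 fold change of 0.47 and Kcnj8 one of -0.42, both without overlap, and Cspg4 one of -0.54 with overlap. Of 5 endothelial markers, 2 lay above 0, and Kdr was at -0.54 with overlap. The non-muscle forms Cox6a1, Cox7a2, Cox8a and Cox4i2 had negative log2 fold changes. After the correction they stood at -0.36, -0.025, 0.089 and -0.30. The part of these cell types in the ratios was not tested.

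**Figure D4:**
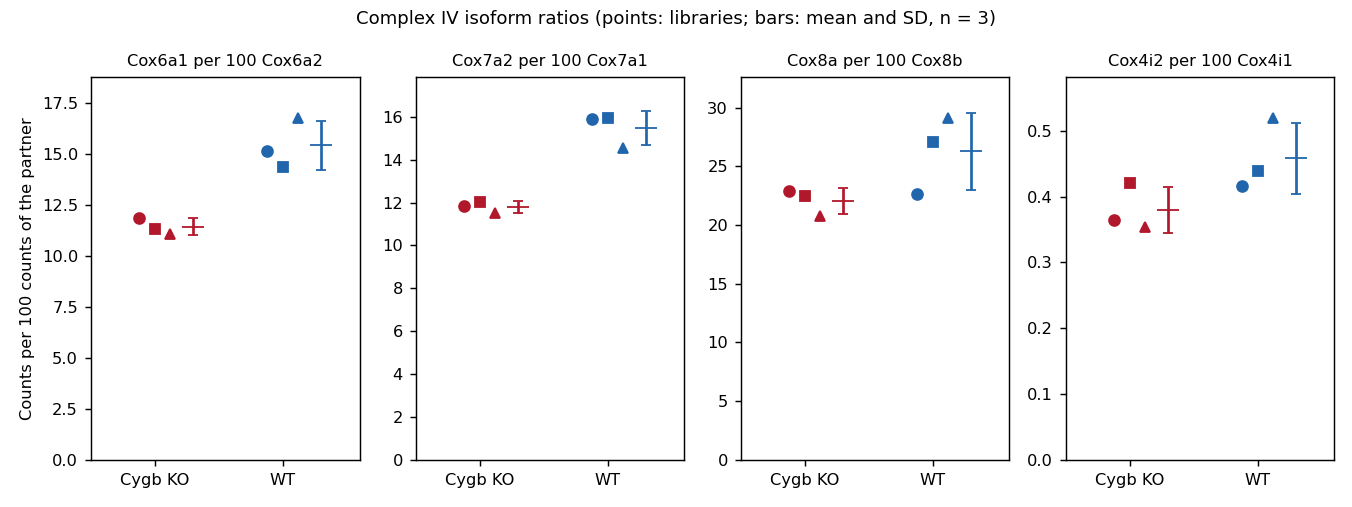
Counts of the less abundant isoform per 100 counts of its partner within each library for 4 complex IV pairs, with Cygb KO left of WT, points for libraries and bars for the mean and SD of 3. The Cox6a and Cox7a pairs separate the groups (11.0 to 12.03 in Cygb KO against 14.4 to 16.7 in WT over both), and the Cox8 and Cox4 pairs overlap in these uncorrected counts.

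Nuclear respiratory genes are classical targets of the factors NRF1, of ETS factors such as GABP, and of YY1. The promoters of Cox6a1, Cox7a2 and Cox7a1 are shown because these genes belong to the pairs whose ratios did not overlap (RefSeq, GRCm38.p6, from 250 bases before to 50 after the start; chr5:115348909-115349208 and chr9:79759804-79760103 on the minus strand, chr7:30183921-30184220 on the plus strand). Capitals mark matches to GCGCANGC (core of the NRF1 site), CCGGAAG (ETS) or AAGATGGC (YY1) on either strand.
Cox6a1: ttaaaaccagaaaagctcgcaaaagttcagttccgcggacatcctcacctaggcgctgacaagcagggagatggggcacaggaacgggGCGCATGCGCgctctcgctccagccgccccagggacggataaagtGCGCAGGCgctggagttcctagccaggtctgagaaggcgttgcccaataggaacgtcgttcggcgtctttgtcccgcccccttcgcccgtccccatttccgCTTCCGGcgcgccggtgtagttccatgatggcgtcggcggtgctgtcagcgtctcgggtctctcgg
Cox7a2: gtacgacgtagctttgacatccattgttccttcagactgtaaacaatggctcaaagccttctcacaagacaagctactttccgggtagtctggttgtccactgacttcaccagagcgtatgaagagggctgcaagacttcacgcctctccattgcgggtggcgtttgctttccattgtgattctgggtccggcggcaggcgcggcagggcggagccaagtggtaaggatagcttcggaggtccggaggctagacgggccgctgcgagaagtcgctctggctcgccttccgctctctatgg
Cox7a1: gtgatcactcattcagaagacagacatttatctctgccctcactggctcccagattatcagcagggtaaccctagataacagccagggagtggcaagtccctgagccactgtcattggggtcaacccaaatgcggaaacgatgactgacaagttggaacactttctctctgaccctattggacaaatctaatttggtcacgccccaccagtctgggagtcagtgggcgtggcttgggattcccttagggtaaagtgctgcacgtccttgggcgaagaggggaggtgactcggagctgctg
The Cox6a1 window holds matches to the NRF1 and ETS letters, and the Cox7a2 and Cox7a1 windows hold none of these letters. Of the 96 nuclear members, 76 had a promoter in the table. The NRF1 letters were found in 25 of them (32.9%), against 22.1% of the 10307 genes with a promoter, the ETS letters in 18 (23.7%), against 19.4%, and the YY1 letters in 11 (14.5%), against 5.16%. A window can match several of the 3 searches, as that of Cox6a1 does, and a match is a description of the window only.

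Complex V had a nuclear median of -0.016 with 7 of 17 above 0, and 0.088 with 12 above 0 after the GC content and length correction. Without WT 3 the median was 0.045. The catalytic head subunits Atp5f1a and Atp5f1b, which had the most counts of the nuclear members, had log2 fold changes of -0.014 and 0.033 (SE 0.13 each). Atp5f1d, the delta subunit of the central stalk, had 205, 183 and 187 CPM in Cygb KO and 299, 197 and 304 CPM in WT. WT 2 lay within the Cygb KO range and the other WT libraries far above it (-0.48, SE 0.16, edgeR adjusted p = 0.147). It was called lower without WT 2 (-0.65, edgeR adjusted p = 0.00604) and was at -0.15 after the correction. Atp5pd, subunit d of the peripheral stalk, had 134, 136 and 117 CPM in Cygb KO and 72.9, 119 and 90.5 CPM in WT (0.45, SE 0.16, edgeR adjusted p = 0.171). Atp5mk, a small membrane subunit, had 74.4, 61.2 and 54.4 CPM in Cygb KO and 31.2, 57.0 and 41.9 CPM in WT (0.55, SE 0.20, edgeR adjusted p = 0.177). In both, WT 2 was inside the Cygb KO range, and without it edgeR called Atp5pd at 0.67 and Atp5mk at 0.80 (adjusted p = 0.0102 and 0.0134). Atp5po, the stalk subunit that confers oligomycin sensitivity, had a log2 fold change of -0.22 (adjusted p = 0.426). The c-ring is encoded by 3 genes with the same mature protein, of which Atp5mc3 had 1061 ± 63.3 CPM in Cygb KO and 1118 ± 122 CPM in WT, Atp5mc1 58.1 ± 3.49 CPM in Cygb KO and 50.5 ± 8.19 CPM in WT, and Atp5mc2 5.19 ± 0.493 CPM in Cygb KO and 5.52 ± 1.20 CPM in WT (SD, n = 3 each). None of the 3 had an unadjusted p under 0.05, and Atp5mc1 and Atp5mc2 have near-identical copies elsewhere.

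The count of calls depended on WT 2. Leaving out WT 2, edgeR called 8 members higher in Cygb KO (7.34%) and 11 lower (10.1%), against 7.25% and 6.39% of all genes. The 8 were ATP8, Atp5mk, Atp5pd, Cox5b, Cox7c, Ndufa12, Ndufb4 and Sdhd. The 11 were Atp5f1d, Cox4i1, Cox4i2, Cox6a1, Cox6a2, Ndufa11, Ndufa6, Ndufa7, Ndufb10, Ndufs7 and Uqcrc1. No other omitted library gave a call except Cygb KO 2, with ND4L and ND5. Cox4i1, the main form of subunit IV, shows the pattern, with 1645, 1526 and 1471 CPM in Cygb KO and 1859.8, 1483 and 2266 CPM in WT. WT 2 lay within the Cygb KO range, WT 1 above it and WT 3 higher still (-0.27, SE 0.15, edgeR adjusted p = 0.346, and -0.41 with adjusted p = 0.0465 without WT 2).

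Over the 94 nuclear members with a known transcript sequence, the log2 fold change was lower at higher GC content (r = -0.448, rho = -0.555), much as it did over the 13128 genes of the table with such a value (r = -0.482, rho = -0.531). Genes share the same 6 libraries, so these are descriptions across genes. The members' levels relative to the mean of the 6 libraries correlated with GC content at r = -0.46, -0.15 and -0.45 in Cygb KO 1, 2 and 3 and at 0.42, -0.29 and 0.41 in WT 1, 2 and 3, and WT 2 again had the sign of the Cygb KO libraries. By GC content, the median log2 fold change was -0.0086 in the 32 nuclear members of lowest GC content, -0.076 in the next 31 and -0.21 in the 31 highest, a split chosen after the values were seen. The mitochondrial genes had 31.9% to 41.1% GC content, and the nuclear members 39.5% to 60.4%, so genome of origin and base composition overlap little. Their parts in the difference between the genomes cannot be told apart here beyond the corrected values given. Only 934 genes lay at or under the highest mitochondrial GC content, 41.1%. The corrected mitochondrial values thus rest on the low end of the fitted trend. After the correction, 10 members lay higher and 4 lower at an unadjusted p under 0.05 (9.17% and 3.67%, against 7.21% and 6.62% of all genes), and none of them was mitochondrially encoded. The 10 were Atp5me, Atp5mk, Atp5pd, Cox5b, Cox7a1, Cox7c, Cox8b, Ndufa12, Ndufb4 and Ndufs6b, and the 4 were Cox6a1, Ndufa2, Ndufb2 and Ndufs4.

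**Figure D5:**
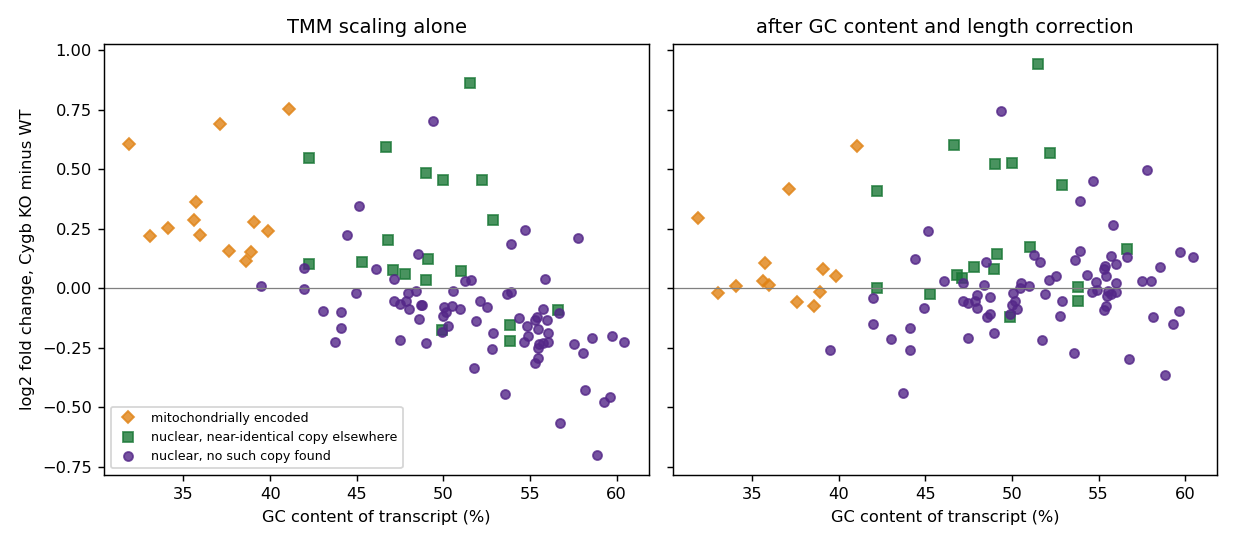
Log2 fold change (Cygb KO minus WT) of the members against the GC content of their transcript in percent, with TMM scaling alone on the left and after the GC content and length correction on the right, and 1 point per gene. On the left the mitochondrially encoded members (31.9% to 41.1% GC) all lie above 0 and the nuclear members slope down. On the right the fold changes of the nuclear members correlate with GC content at r = 0.10 and rho = 0.18. The mitochondrial median there is 0.031.

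Members with a near-identical copy elsewhere in the genome went with the higher fold changes. A copy was taken as another gene's transcript with at least 97% identity over at least 100 bases, and the classes were made after the values were seen. The 19 nuclear members with such a copy had a median of 0.11 with 15 above 0, and the 75 without had -0.12 with 14 above 0. After the GC content and length correction the medians were 0.14 and -0.017. Ndufa12, Cox7c, Cox5b, Atp5pd, Atp5mk and Ndufb4, all with an unadjusted p under 0.05 and a positive fold change, belong to the 19. Reads that match a gene and its copy equally may have been dropped or split, and the part of this in the values was not tested. Ndufb4 itself had 11.2, 10.4 and 9.74 CPM in Cygb KO and 5.43, 9.54 and 7.90 CPM in WT (0.46, SE 0.21, edgeR adjusted p = 0.26), while its copies Ndufb4b and Ndufb4c had between 62.5 and 87.5 CPM in all libraries and log2 fold changes of 0.061 and 0.071. Ndufs5 had 53.2 ± 5.45 CPM in Cygb KO and 51.9 ± 4.81 CPM in WT, and the symbol Ndufs5-ps had 103 ± 5.34 CPM in Cygb KO and 107 ± 16.1 CPM in WT (SD, n = 3 each). Counts of Ndufb4 per 100 of its copies and of Ndufs5 per 100 of Ndufs5-ps overlapped between the groups. Among the other members counted apart, the 8 assembly factors had a median of -0.029 with log2 fold changes from -0.30 for Ndufaf8 to 0.082, Atp5if1 had -0.19 and Cox7a2l -0.17, and none had an unadjusted p under 0.05.

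Genes around the chain, from lists chosen with earlier results of these data known, gave 0 calls in either direction by edgeR with all libraries kept. DESeq2 called 2 of the 36 assembly factors for complexes II to V and 1 of the 15 biogenesis regulators. It called 2.63% of all genes higher and 1.99% lower. Without WT 2, edgeR called 7.25% of all genes higher and 6.39% lower. In that fit, 7 of the 36 assembly factors were called lower, and 3 biogenesis regulators higher and 1 lower. Of the electron carrier and coenzyme Q genes, 1 was called higher and 1 lower. The same fit called 1 gene higher in each of the lists of complex I assembly, mitochondrial DNA expression and inner membrane carriers. For the citric acid cycle, 1 gene was called lower. At an unadjusted p under 0.05 the counts below stand against 10.2% of all genes higher and 8.94% lower. Of 15 regulators of mitochondrial biogenesis, 9 lay above 0 (median 0.074), 4 higher and 1 lower at an unadjusted p under 0.05. Ppara, a nuclear receptor for fatty acid oxidation genes, had 99.9, 77.6 and 119 CPM in Cygb KO, against 63.8, 62.5 and 67.6 CPM in WT. The groups did not overlap (log2 fold change 0.61, SE 0.15, edgeR adjusted p = 0.0847, and 0.63 after the GC content and length correction). The coactivator Ppargc1a and the ETS factor Gabpa each had 0.38 (adjusted p = 0.136 and 0.14), also without overlap, but 0.057 and 0.10 after the correction. Of 29 genes for replication and expression of mitochondrial DNA, 19 lay above 0 (median 0.15, and 0.050 after the correction), with 1 higher and 0 lower at an unadjusted p under 0.05: Pnpt1, a mitochondrial RNA exonuclease, at 0.47 (adjusted p = 0.192). Trmt10c and Mterf2 were at 0.31 and 0.24. Pnpt1, Trmt10c and Mterf2 stood at 0.29, 0.14 and 0.12 after the correction.

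Of 36 assembly factors for complexes II to V, 15 lay above 0 (median -0.021). At an unadjusted p under 0.05, 0 lay higher and 4 lower, against 10.2% and 8.94% of all genes. Cox19, a copper handling factor of complex IV, had 40.0, 38.7 and 37.1 CPM in Cygb KO, against 53.2, 55.1 and 49.7 CPM in WT, a clear gap with WT 2 highest (log2 fold change -0.45, SE 0.12, edgeR adjusted p = 0.101, and -0.40 after the correction). Cox15, which makes the heme a of complex IV, had 23.4, 27.5 and 25.7 CPM in Cygb KO, against 37.6, 31.8 and 37.2 CPM in WT, also with no overlap (-0.48, SE 0.14, adjusted p = 0.11, and -0.62 after the correction). Cox14, an early assembly factor of the same complex, had -0.44 (adjusted p = 0.146), and its groups did not overlap either. Of 9 other complex I assembly factors, 4 lay above 0 (median -0.038), and Tmem126b had 0.40 (adjusted p = 0.218), Timmdc1 -0.19 and Foxred1 0.12. Of 19 electron carriers and coenzyme Q genes, 10 lay above 0 (median 0.021), and Gpd2 and Etfdh, which feed electrons to ubiquinone, had 0.44 and 0.28 (adjusted p = 0.165 and 0.26) and Coq10a -0.28. Of 18 citric acid cycle genes, 12 lay above 0 (median 0.048), with Suclg2 at 0.36, Sucla2 at 0.30 and Mdh2 at -0.29 (adjusted p = 0.174, 0.244 and 0.26). Of 16 carriers and cristae genes, 7 lay above 0 (median -0.032). The inner membrane fusion protein Opa1 was at 0.42 (edgeR adjusted p = 0.141), Chchd6 at -0.44 (edgeR adjusted p = 0.202) and Micos10 at -0.25. The correction put Cox14 at -0.24, and Opa1, Chchd6 and Micos10 at 0.14, -0.18 and -0.20. It put Gpd2, Etfdh and Coq10a at 0.24, 0.23 and -0.056, and Suclg2, Sucla2 and Mdh2 at 0.21, 0.17 and -0.095. Tmem126b, Timmdc1 and Foxred1 stood at 0.31, -0.11 and 0.17 after it.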

How the data were processed

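Polyadenylated RNA was measured in 6 left ventricles, 1 library per mouse. The authors deposited raw whole-number counts per gene. The mm10 build and DESeq2 are named in the submitters' processing notes; aligner, counter, annotation and strand setting were not given in the sources used here. Without strand, ND5 and ND6, which overlap on opposite strands, may share reads. Each of the 13384 genes had at least 0.507 CPM in every library. Library totals of 23190864 to 30354857 counts leave counting error small for most members, so the spread between libraries sets the precision. With 1 library per mouse, differences between mice and between library preparations cannot be told apart in it.

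The quasi-likelihood fit used edgeR 4.0.16 under R 4.3.3, with TMM factors, robust estimation and no covariate, all 3 Cygb KO against all 3 WT libraries. Two-sided p-values were adjusted (Benjamini-Hochberg, all genes) and called under 0.05. Levels are TMM-scaled CPM, and fold changes are Cygb KO minus WT. The fit was tested on simulated data. Alternatives were DESeq2 1.42.0, limma-voom (limma 3.58.1), other size factors and filters, scaling without mitochondrial genes, estimation without robustness, a threshold of 0.1, a replicate block, each library left out, and a spline correction (4 degrees of freedom) of each library on GC content and length. Those came from GENCODE M21 transcripts for 107 members and 98.1% of genes; copies were sought with BLAST 2.17.0 in the same transcripts. Corrected ratios, copy classes and GC classes were added after seeing the data.

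Members and lists were chosen with earlier results of these data known. Text names the 13 mitochondrial members, the 4 smallest p-values per nuclear complex, the isoform pairs, the c-ring genes and 3 genes per list; others, such as Ndufs1, Ndufs7, Ndufb4 and Cox7a2l, were chosen after their values were seen. Markers of cardiomyocytes, fibroblasts, smooth muscle and atrium are given in the text. Sums of 4 pericyte markers were 449 to 456 CPM in Cygb KO and 389 to 465 CPM in WT, of 5 endothelial markers 1148 to 1519 CPM in Cygb KO and 1298 to 1534 CPM in WT, of 5 macrophage markers 162 to 187 CPM in Cygb KO and 142 to 162 CPM in WT, and of 2 adipocyte markers 1.14 to 2.04 CPM in Cygb KO and 1.61 to 2.09 CPM in WT.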

Additional observations from a re-analysis of the deposited data

How the results depend on the processing

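The counts of calls depended on the tool and on single libraries. Over all genes, 12 higher and 3 lower by edgeR compare with 352 and 266 by DESeq2, 131 and 87 with a replicate block, and 193 and 125 at an adjusted p under 0.1. Estimation without robustness gave 7 higher, limma-voom 5 lower and the GC content and length correction 6 lower. Leaving out 1 library gave 0 to 971 higher and 0 to 855 lower, the highest without WT 2. Among members, 0 higher and 0 lower compare with 4 and 1 by DESeq2, 1 and 0 with the replicate block (ND5, log2 fold change 0.66, adjusted p = 0.0335), 1 and 1 at an adjusted p under 0.1, and 0 to 8 and 0 to 11 with 1 library left out. The replicate numbers are not shown to pair the mice: deviations of same-numbered libraries correlated at -0.132, -0.0823 and -0.167. The correction took the mitochondrial median to 0.031 and the complex III median to -0.017. It turned the sign of the medians of all nuclear members (0.0073), complex I (0.0096) and complex V (0.088), and of ND1 (-0.058), COX2 (-0.073), COX3 (-0.016), ND3 (-0.019), Uqcrc1 (0.029), Cox4i1 (0.029), Cox8a (0.089), Cox6b1 (0.0078), Cox6b2 (0.14), Atp5mc2 (0.16) and Atp5mc3 (0.0012). With 1 library left out, the sign of a median turned without WT 3 for all nuclear members (0.0065) and complex V (0.045) and without WT 2 for complex II (-0.034), and the sign of a member without WT 3 for Sdhc (range -0.16 to 0.021), Cox6b1 (-0.14 to 0.012), Atp5mc2 (-0.20 to 0.10) and Atp5mc3 (-0.14 to 0.012), and without WT 1 for Cox6b2 (-0.30 to 0.17). None of these members was called with all libraries or under the alternative that turned its sign, and the cause was not tested. Over the named members and list genes, 986 values under alternatives kept their direction and their side of the threshold, 36 passed it only under the alternative, and 16 turned sign. With 3 mice a group, the spread between libraries sets the limit, with a common biological coefficient of variation of 0.166. Genes at a few CPM, such as Sdhd, Atp5mc2 and Cox6b2, are limited by counting error as well.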
